A study of Rattus norvegicus with 4 samples.

Results

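The neurotrophin and GDNF family receptors were described in rat trigeminal nerve tissue as a set of 9 genes chosen by symbol, namely the receptors Ntrk2, Ntrk3, Ngfr, Ret, Gfra1, Gfra2 and Gfra3 and the ligands Bdnf and Gdnf. Of these, 8 had a row among the 32623 genes of the deposited table, and Gfra1 was not analysed here. All rats were adult male wild-type Sprague–Dawley animals. In the trigeminal neuralgia (TN) model the trigeminal root was mechanically compressed on 1 side, and root, semilunar ganglion and proximal branches of that side were placed on capture areas TN1, TN2 and TN3, with 1 animal on each. The healthy control (HC) area held tissue of 2 animals and is 1 sample. The series description takes it from the uncompressed side of 2 TN animals, whereas the study's methods speak of sham-operated controls, so that a TN against HC difference may compare sides of the same animals. RNA was captured on Visium spots, each of which covers a small region and can hold several cells or parts of cells, and was counted as unique molecular identifiers (UMIs).

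Neurotrophins such as BDNF act through receptor tyrosine kinases of the Trk family, of which Ntrk2 encodes TrkB, the receptor of BDNF, and Ntrk3 encodes TrkC, the receptor of NT-3. Ngfr encodes p75NTR, a death-domain receptor shared by all neurotrophins and made by sensory neurons and by Schwann cells after injury. GDNF, neurturin and artemin bind the membrane-anchored co-receptors GFRα1, GFRα2 and GFRα3, respectively, and signal through the receptor tyrosine kinase RET. In sensory ganglia these receptors mark classes of neurons that differ in their target tissue and in the stimuli they detect.

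The 4 areas held 6773 spots and between 23546025 (TN1) and 41335930 (HC) UMIs each, with a median per spot from 9487 in TN1 to 30808 in TN2. Mitochondrial genes took 11.6% of UMIs in TN1 and between 5.90% and 7.81% in the other areas. Spots were grouped into 10 clusters without using the members or their pathway genes, and the clusters were named from marker lists. The ganglion region (clusters 2 and 8) had 202, 366, 166 and 675 spots in TN1, TN2, TN3 and HC. All 10 sensory neuron markers were detected in it, and together they took 7919, 7278, 6837 and 7851 CPM (UMIs per 1000000 UMIs of the sum) in these areas, against 704 to 1544 in the central myelin region. Cluster 4 carried both Schwann cell and sensory neuron markers, and cluster 5 both connective tissue and Schwann cell markers. Neither was given a name. The clusters were unevenly spread over the areas, and the peripheral nerve cluster had 409 and 377 spots in TN1 and TN3 but 12 in TN2 and 17 in HC.

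The members differed widely in how often they were seen. Ngfr gave 65103 UMIs over all spots, Ntrk2 22454, Ret 17379, Gfra3 12424, Gfra2 8396 and Bdnf 1990. Ntrk3 gave 106 UMIs in 99 spots, and Gdnf 2 UMIs in 2 spots. These totals also depend on how well each transcript is captured and assigned, so levels were compared between regions and areas and not between genes. The counts do not tell apart the full-length and truncated forms of Ntrk2.

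Ret, the signalling receptor of the GDNF family, was highest in the ganglion. Ganglion levels of TN1, TN2, TN3 and HC were 270, 162, 251 and 204 CPM, with TN2 lowest and a mean of 222 ± 48.3 CPM (SD, n = 4 areas). In cluster 4 it was 149 ± 27.7 CPM (n = 4), and the ranges of these regions overlapped. All other regions had means under the lowest cluster 4 value, from 29.4 CPM in the central neuron region to 70.9 CPM in blood and bone. The ganglion held 70.1% of all Ret UMIs and 42.9% of the UMIs of all genes.

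Gfra3, the co-receptor for artemin, followed the same order at its top. It was 143, 167, 129 and 138 CPM in the ganglion of TN1, TN2, TN3 and HC (144 ± 16.4 CPM, n = 4), and 106 ± 19.8 CPM in cluster 4 (n = 4). Every central region was far lower, with 20.4 CPM in central myelin, 16.6 CPM in the astrocyte region and 22.8 CPM in the central neuron region. The ganglion held 68.3% of Gfra3 UMIs. Over the 26 sums of a region in an area, Ret and Gfra3 had a Pearson correlation of 0.85 on log2(CPM + 5), a description over sums that share libraries.

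The RefSeq bases upstream of the start of Ret and Gfra3 are shown because these are the members with the largest ganglion shares, and because they differed in opposite directions between the ganglion clusters described further on. The promoter table used here had entries for 5 of the 9 genes, with 1 each for Ret, Gfra1, Gfra3 and Gdnf and 6 for Bdnf. Each sequence covers the 250 bases before the annotated start in the GRCr8 build, 5′ to 3′ on the minus strand that carries the gene, at chr4:153040557-153040806 for Ret and chr18:26600226-26600475 for Gfra3. Capitals mark the GC box letters GGGCGG on either strand.
Ret: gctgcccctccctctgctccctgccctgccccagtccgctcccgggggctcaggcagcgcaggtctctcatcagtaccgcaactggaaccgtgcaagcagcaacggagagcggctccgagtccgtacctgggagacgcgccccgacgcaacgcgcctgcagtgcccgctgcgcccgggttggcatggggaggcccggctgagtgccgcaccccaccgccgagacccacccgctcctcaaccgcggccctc
Gfra3: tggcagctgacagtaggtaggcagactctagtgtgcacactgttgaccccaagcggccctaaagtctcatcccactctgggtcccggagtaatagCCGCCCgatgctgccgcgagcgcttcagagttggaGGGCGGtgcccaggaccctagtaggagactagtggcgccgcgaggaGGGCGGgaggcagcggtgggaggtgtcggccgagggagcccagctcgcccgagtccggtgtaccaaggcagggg
Gfra3 had 3 GC boxes and Ret none, and 30.5% of the 33469 promoters in the table held at least 1 in the same 250 bases. The letters CANNTG of an E-box were found once in each, as they were in 65.5% of all promoters. The CRE letters TGACG (18.2% of promoters), the AP-1 letters TGANTCA (6.34%) and TATAAA (12.9%) were in neither window. These are matches of letters in this window and say nothing of binding.

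Bdnf, the ligand of TrkB, shared the ganglion maximum at a lower count. It measured 21.7, 33.0, 21.4 and 16.6 CPM in TN1, TN2, TN3 and HC (23.2 ± 6.94 CPM, n = 4), and 14.5 ± 3.98 CPM in cluster 4. The central myelin (3.05 CPM) and peripheral nerve (2.99 CPM) regions stood at the bottom. A Bdnf UMI was seen in 41.8% of ganglion spots of HC and in 46.4% to 64.8% of those of the TN areas, but in 0.897% to 4% of central myelin spots. The depth differed, with medians of 35919 to 48968 UMIs per ganglion spot and 4367 to 11342.5 per central myelin spot. After thinning every spot to 2000 UMIs, the share was 3.70% in ganglion spots of HC (exact 95% binomial interval 2.41% to 5.42%) and 4.82% to 5.94% in those of TN, against 0.231% to 0.800% in central myelin. These intervals cover counting error only.

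Gfra2, the co-receptor for neurturin, was spread more evenly. It was 74.6, 62.3, 71.4 and 94.3 CPM in the ganglion of TN1, TN2, TN3 and HC (75.7 ± 13.5 CPM, n = 4) and 73.3 ± 14.1 CPM in cluster 4. It was lowest in central myelin at 28.5 CPM, and every pair of neighbouring regions in its order had overlapping ranges. The ganglion held 55.4% of its UMIs.

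Ngfr was high in the ganglion and in the unnamed cluster 5. The ganglion had 560, 646, 533 and 559 CPM in TN1, TN2, TN3 and HC (575 ± 49.4 CPM, n = 4). Cluster 5, which had spots in TN2 and TN3 only beyond 1 in TN1, was higher at 687 and 662 CPM, without overlap with the whole ganglion. It was 1.06 times the ganglion of the same area in TN2 and 1.24 times in TN3. Of the ganglion, cluster 2 of TN2 alone was above both values, at 782 CPM. Connective tissue spots of TN2 and TN3 had 679 and 411 CPM, and the peripheral nerve cluster 175 CPM in TN1 and 326 CPM in TN3. Central myelin (122 CPM) and the central neuron region (97.9 CPM) had the lowest means. The astrocyte region had 226 CPM in TN2 and 228 CPM in TN3, between the 2 values of the peripheral nerve cluster.

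Ntrk2 was higher in glial central regions than in the ganglion. It was highest in the astrocyte region, at 599 CPM in TN2 and 600 CPM in TN3, and next in central myelin, with 300, 405, 365 and 359 CPM in TN1, TN2, TN3 and HC (357 ± 43.5 CPM, n = 4). Neither range overlapped with the next. The ganglion had 165 ± 28.6 CPM (n = 4), the peripheral nerve 68.9 CPM and connective tissue 59.2 CPM. The ganglion share of Ntrk2 UMIs, 41.9%, was close to the 42.9% of all UMIs that lay there.

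**Figure D1:**
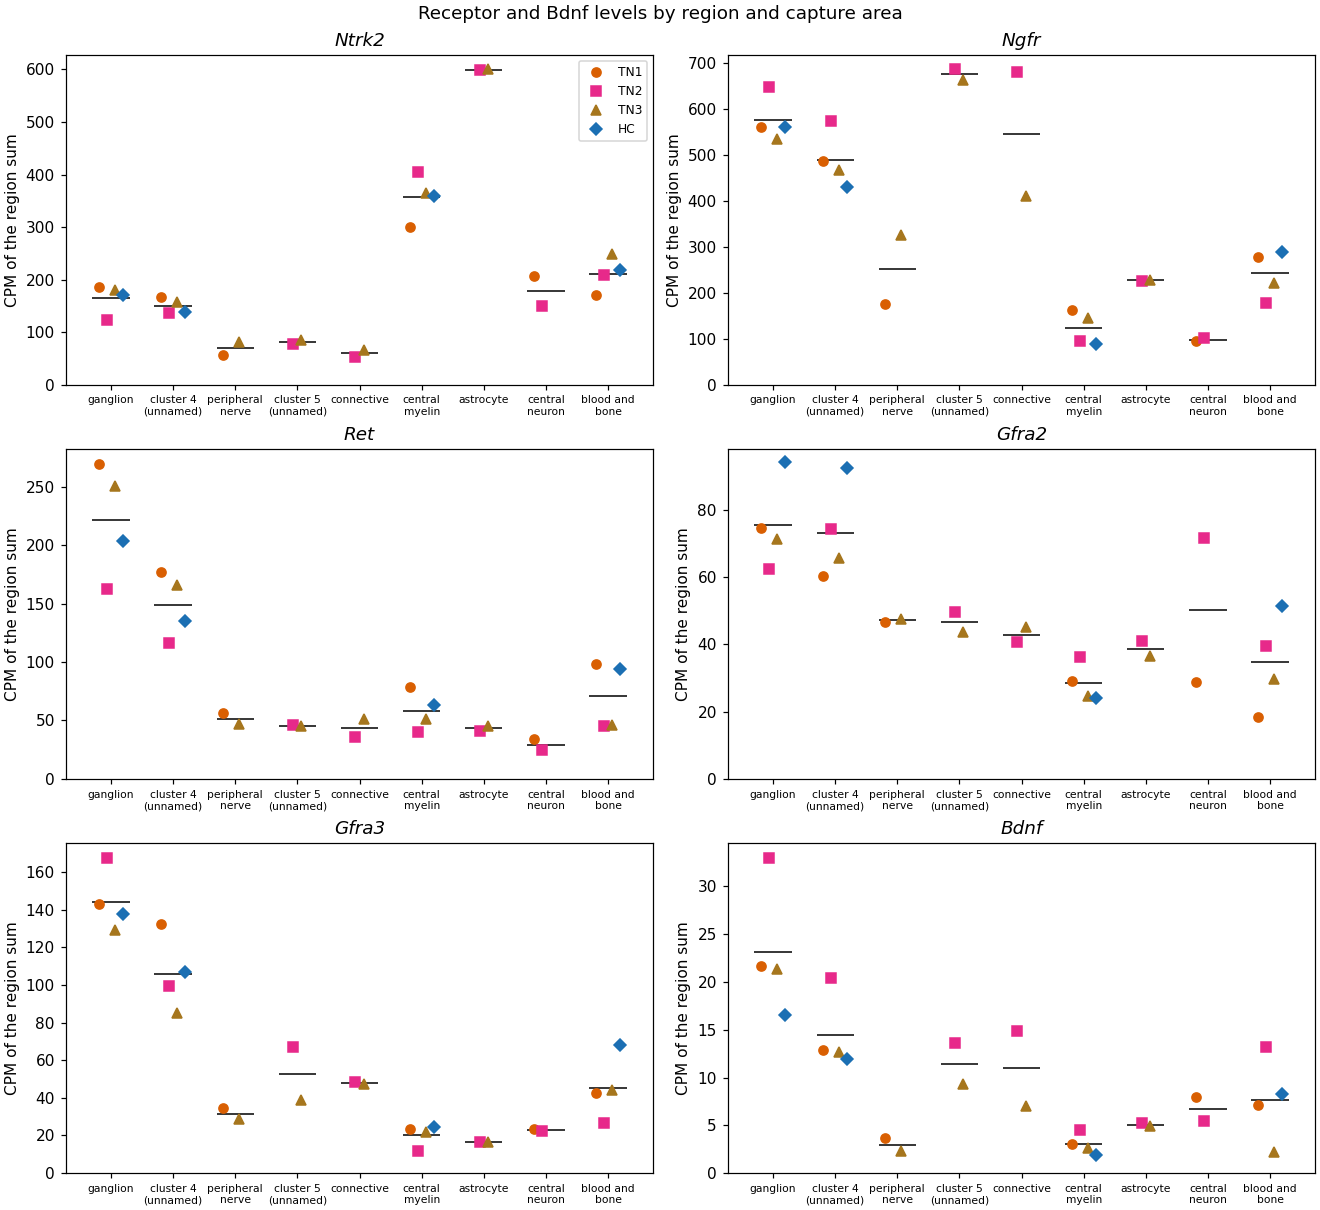
Level of 6 members in CPM of the UMI sum (y axis) in 9 regions (x axis). Each point is a capture area with 20 or more spots of the region, and the line is their mean. Ret, Gfra3 and Bdnf peak in the ganglion, Ntrk2 in the astrocyte region at 599 CPM, and Ngfr in cluster 5 at 675 CPM.

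Ntrk3 and Gdnf were at the limit of the data. The ganglion held 6, 11, 3 and 20 Ntrk3 UMIs in TN1, TN2, TN3 and HC, between 0.434 and 0.761 CPM. The blood and bone region had the highest mean with 1, 4, 2 and 11 UMIs. The Gdnf UMIs were 1 in the ganglion of TN1 and 1 in cluster 5 of TN3. In HC, 0 of 675 ganglion spots had a Gdnf UMI, and a limit of 3 counts allows a share of spots with a UMI of up to 0.444% (0.545% by the exact 95% binomial interval). This limits spots with a UMI, not expression, and differences in Gdnf were not detectable at this depth. HC had the highest of the Ntrk3 ganglion levels. Neither gene had enough counts to be tested between TN and HC, except for Ntrk3 over all spots.

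The genes with the pattern most like each member, by Pearson correlation of log2(CPM + 5) over the same 26 sums among 9222 genes, were in part known markers of the same regions. For Ntrk2 they were Fabp7 (r = 0.93), a lipid-binding protein of astrocytes and satellite glia, Slc15a2 (0.91) and Ptprz1 (0.89), a phosphatase of glial precursors. For Gfra3 they were Shc2 (0.97), an adaptor of receptor tyrosine kinases, Npy1r (0.97), a neuropeptide Y receptor, and Osbpl3 (0.97). For Bdnf they were Maged1 (0.96), which binds p75NTR, Gap43 (0.92), a growth cone protein, and Txnrd1 (0.92). Ret was followed by Slc9a9, Clrn1 and Dhrs2 (each 0.96), Ngfr by Ldha (0.95), Numbl (0.94) and Mcam (0.94), and Gfra2 by Timm22, Sympk (both 0.90) and Fchsd1 (0.88). Shc2 and Maged1 are also on the list of pathway genes.

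Within the ganglion spots of 1 area, Gfra3 was the member that went most with the sensory neuron markers in TN1, TN3 and HC, but not in TN2. These markers, with Calca, Tac1, Scn10a and Trpv1 among them, need not cover all classes of sensory neurons alike. Its correlation with the summed sensory neuron markers (log2 of CPM + 1000 per spot) was 0.68 over 202 spots of TN1, 0.20 over 366 spots of TN2, 0.60 over 166 spots of TN3 and 0.57 over 675 spots of HC. In TN2, Ret (0.407), Bdnf (0.306) and Ngfr (0.204) were above Gfra3 (0.199). The same value lay between -0.31 and 0.09 for Ntrk2 and between -0.01 and 0.17 for Gfra2. Ret and its co-receptors were only weakly related, with 0.13 to 0.32 for Gfra2 and 0.09 to 0.14 for Gfra3. Spots of an area share a library and are not independent, and correlations of Gfra3 with depth were between -0.03 and 0.13.

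The ganglion consisted of 2 clusters with different receptor levels. All 675 HC ganglion spots lay in cluster 2. Cluster 8 had 54, 326 and 69 spots in TN1, TN2 and TN3, and genes of nerve injury were 4 of its 10 leading genes. The injury list, with Atf3, Sprr1a and Gap43 among its 10 genes, took 2375, 2913 and 2435 CPM in cluster 8 of TN1, TN2 and TN3, against 1058, 1268 and 942 in cluster 2 of the same areas and 497 in HC. Gfra3 was higher in cluster 8 than in cluster 2 of the same area in all 3 TN areas, with ratios of 1.35, 1.34 and 1.44. Its values were 176, 174 and 161 CPM in cluster 8 against 131, 130 and 111 in cluster 2, and 138 in HC. Ret was lower in cluster 8 in all 3 areas, with ratios of 0.743, 0.640 and 0.718, from 290, 233 and 279 CPM to 215, 149 and 200 CPM. Ngfr (0.820, 0.796 and 0.822) and Ntrk2 (0.908, 0.844 and 0.875) were also lower in every area. Gfra2 (0.747, 0.619 and 1.08) and Bdnf (1.21, 0.813 and 2.03) differed in direction between areas. The 2 clusters were formed from the expression of these spots and share areas and libraries, so these ratios are a description with no test. The summed sensory neuron markers were 7911, 10515 and 6862 CPM in cluster 2 and 7941, 6694 and 6792 CPM in cluster 8, and the macrophage list 722, 881 and 791 CPM against 1608, 2211 and 1614 CPM. Their part in these ratios was not tested.

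**Figure D2:**
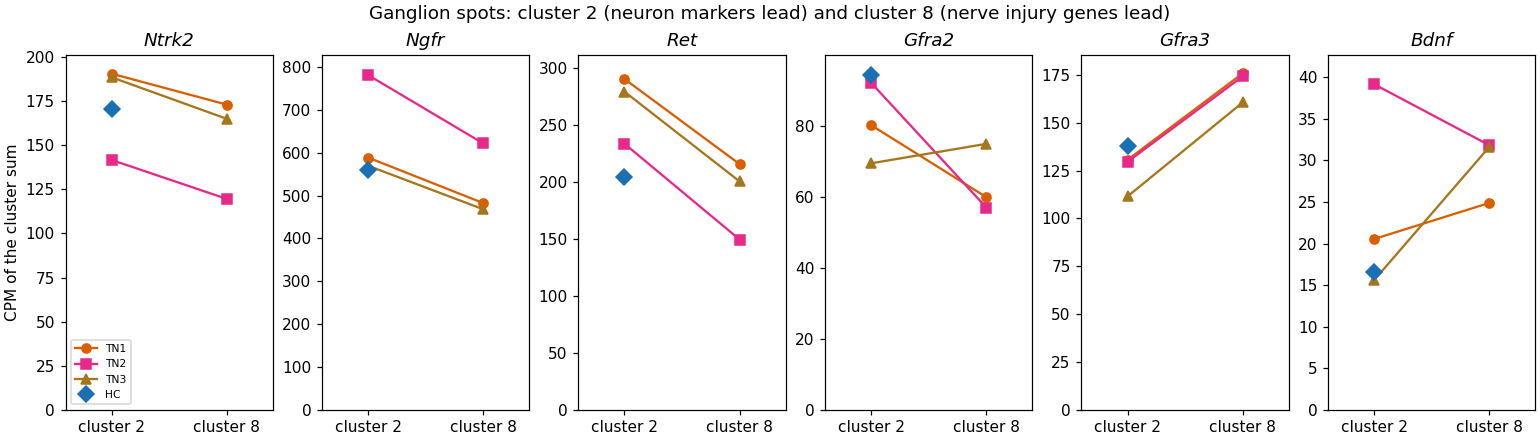
CPM of 6 members (y axis) in the ganglion clusters 2 and 8 (x axis), with a line for each TN area and a diamond for HC, which has cluster 2 spots only. Gfra3 is higher in cluster 8 in all 3 TN areas, and Ret, Ngfr and Ntrk2 are lower.

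The TN against HC comparison asked whether root compression goes with a change in these receptors. UMI sums per area were tested with edgeR, which had 3 TN areas, 1 HC area and 2 residual degrees of freedom. An exact two-sided permutation test over 3 against 1 areas cannot give a p below 0.5, with the two-sided p taken as 2 times the smaller one-sided p. In bulk sums of spots, fewer cells of a type and less RNA per cell cannot be told apart. Fold changes below are on normalised (TMM) counts, with their standard error (SE).

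In the ganglion no member passed the adjusted threshold of 0.05, and neither did any of the 12836 genes tested (0%). At an unadjusted p under 0.05 there were 1179 genes (9.19%), and DESeq2 called 118 genes (0.919%), no member among them. Without TN1 edgeR called 1096 genes (8.48%) and without TN2 29 (0.239%), again with no member. Of the 6 members tested, Gfra2 was the only 1 lower in all 3 TN areas, at 74.2, 60.9 and 71.2 normalised CPM against 97.7 in HC, without overlap. Its log2 fold change was -0.51 (SE 0.19, adjusted p = 0.540). Bdnf was the only tested member higher in all 3 TN areas, at 21.6, 32.2 and 21.3 CPM against 17.2 in HC, a log2 fold change of 0.55 (SE 0.31, adjusted p = 0.597). Among all genes tested, 29.4% were lower and 27.4% higher than HC in all 3 TN areas, so a gene on 1 side of the single control was common.

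The other receptors had TN areas on both sides of HC. Ret was 268, 158 and 250 CPM in TN against 211 in HC (log2 fold change 0.09, SE 0.32), where the low value was that of TN2. Ntrk2 was 185, 120 and 180 CPM against 177 (-0.13, SE 0.28), again low in TN2. Ngfr was 557, 631 and 532 CPM against 579 (-0.01, SE 0.19), and Gfra3 142, 163 and 129 CPM against 143 (0.02, SE 0.21). The adjusted p of these 4 was between 0.899 and 0.985.

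Other cell content of the ganglion sums moved with the condition. All 8 macrophage markers were higher in the 3 TN areas, with sums of 964, 2008 and 1088 CPM against 293 in HC, and all 10 nerve injury genes, 1417, 2662 and 1481 CPM against 497. Of the 10 sensory neuron markers, 5 were lower and 1 higher in all TN areas, and the peripheral myelin list was 10666, 15191 and 13906 CPM against 15533. No gene of these lists was at 0. Their part in the member values was not tested. Per 1000 UMIs of the sensory neuron list, Gfra2 was 9.42, 8.56 and 10.4 in TN against 12 in HC, still lower in all 3 areas, and Bdnf was 2.74, 4.53 and 3.13 against 2.11, still higher. On this scale Gfra3 was also higher in all 3 areas, at 18.0, 23.0 and 18.9 against 17.5.

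Since all HC ganglion spots lay in cluster 2, the members were also compared in that cluster alone, where some stood differently to HC. This leaves out the cluster 8 spots of TN, and 148, 40 and 97 spots remained in TN1, TN2 and TN3 against all 675 in HC. Ret was higher in all 3 TN areas, at 291, 229 and 278 normalised CPM against 209 in HC (log2 fold change 0.35, SE 0.17, adjusted p = 0.594). Gfra3 was lower in all 3, at 131, 127 and 111 CPM against 141 (-0.20, SE 0.16, adjusted p = 0.722). Gfra2 was again lower in all 3, at 80.4, 90.4 and 69.2 CPM against 96.8 (-0.28, SE 0.18, adjusted p = 0.667), with TN2 close to the control. Bdnf was no longer on 1 side, at 20.6, 38.4 and 15.6 CPM against 17.0 (0.50, SE 0.44), with TN3 below HC. Ngfr was 591, 767 and 568 CPM against 574 (0.16, SE 0.19), with TN3 slightly below HC on this scale and slightly above it without TMM scaling (570 against 559 CPM). Ntrk2 was 191, 139 and 188 CPM against 175 (-0.01, SE 0.20). In this cluster 5 of 11369 genes passed (0.044%) and no member did, while 26.1% of all genes were higher and 27.3% lower in all 3 TN areas.

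In cluster 4, a region added after the data had been seen, Gfra2 was again lower in all 3 TN areas. It was 60.8, 73.4 and 65.0 normalised CPM against 95.6 in HC, a log2 fold change of -0.54 (SE 0.21, adjusted p = 0.606), where 5 of 10821 genes passed (0.0462%) and 849 (7.85%) had an unadjusted p under 0.05. None of these 5 was a member, and no gene passed (0%) when TN1, TN2 or TN3 was left out. Of all genes, 25.8% were lower in all 3 TN areas there. The other members had log2 fold changes between -0.07 and 0.22. Here the peripheral myelin list was 28275, 37847 and 37614 CPM in TN against 56409 in HC, and its part was not tested.

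In the central myelin region, 5 members had enough counts to be tested, and none of 9023 genes passed (0%). Of these genes, 286 (3.17%) had an unadjusted p under 0.05, and DESeq2 called 4 (0.0443%), no member among them. Without TN1 edgeR called 408 genes (4.89%) and without TN3 9 (0.0959%), with no member either. Ngfr was 159, 94.6 and 148 CPM in TN against 91.0 in HC, a log2 fold change of 0.56 (SE 0.32, adjusted p = 0.9999), with TN2 close to the control. Gfra2 was 28.5, 35.7 and 25.4 CPM against 25.1, also higher in all 3 TN areas, by 0.25 (SE 0.31). Gfra3 was 23.0, 11.6 and 22.7 CPM against 25.3, lower in all 3. Among all genes there, 20.1% were higher and 21% lower in all 3 TN areas. Ntrk2, at its second highest region level, was 293, 400 and 376 CPM against 374 (-0.07, SE 0.25), and Ret 77.0, 39.3 and 52.6 CPM against 66.1 (-0.22, SE 0.35). The difference between the 2 regions was tested in a fit with the capture area as a block, where 3 of 12774 genes passed (0.0235%), 685 had an unadjusted p under 0.05 (5.36%), and no member passed. Without TN1, TN2 or TN3 82 (0.66%), 8 (0.0646%) or 22 (0.173%) genes passed, still with no member. The difference was largest for Gfra2, at -0.77 on the log2 scale (SE 0.30, adjusted p = 0.896).

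Over all spots of an area, which mixes the regions in the proportions captured, Gfra2 was 52.5, 53.1 and 51.9 CPM in the TN areas against 84.5 in HC. The TN areas were nearly equal, and the log2 fold change was -0.69 (SE 0.19, adjusted p = 0.556). Ret, Gfra3 and Ntrk2 were also lower in all 3 areas, by -0.59 (SE 0.34), -0.54 (SE 0.30) and -0.39 (SE 0.29). None of 14902 genes passed (0%), and 1271 had an unadjusted p under 0.05 (8.53%). The 158 calls of DESeq2 (1.06%) held no member. Of all genes, 30.6% were lower and 28.7% higher in all 3 TN areas. Without TN1, Gfra2 (adjusted p = 0.0410) and Ret (log2 fold change -0.83, adjusted p = 0.0453) passed, as did 2171 of 14692 genes (14.8%). Ntrk3 was 1.01, 0.647 and 0.561 CPM against 0.959 (-0.39, SE 0.59). Ganglion spots were 202 of 1587, 366 of 1256 and 166 of 1917 spots in TN1, TN2 and TN3 and 675 of 2013 in HC, and the part of this mix in the differences was not tested.

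The peripheral nerve cluster could not be tested, since TN2 and HC had fewer than 20 of its spots. When the areas were integrated before clustering, a nerve region with 499, 381, 682 and 485 spots was obtained. It joined clusters 1 and 3 of that clustering, and in cluster 3 sensory neuron markers came next after peripheral myelin markers. Cluster 3 held 125, 232, 186 and 335 of these spots in TN1, TN2, TN3 and HC, so the mix of tissue differed between areas. Gfra2 was 50.3, 44.7 and 51.8 CPM in TN against 97.3 in HC (log2 fold change -0.99, SE 0.20, adjusted p = 0.0756), and Ret 93.8, 56.1 and 54.8 CPM against 148 (-1.12, SE 0.34, adjusted p = 0.127). Ntrk2 was 90.8, 78.8 and 93.1 CPM against 152 (-0.80, SE 0.22, adjusted p = 0.104), and Gfra3 59.6, 79.6 and 40.3 CPM against 115 (-0.94, SE 0.37, adjusted p = 0.191). All 4 were lower in every TN area, as were 36.1% of all genes. None of 12555 genes passed (0%), although 3058 (24.4%) had an unadjusted p under 0.05. Without TN1, Ret (adjusted p = 0.00605), Gfra2 (0.0170) and Ntrk2 (0.0385) passed, beside 2554 of 12381 genes (20.6%). Without TN2, 151 genes passed (1.23%) and no member did. The sensory neuron markers of this region also differed, at 2627, 3287 and 1744 CPM in TN against 6068 in HC, with 9 of 10 lower in all TN areas. Fewer neurons and less marker RNA per neuron cannot be told apart here. Per 1000 UMIs of these markers, Gfra2 was 18.8, 14.7 and 29.1 in TN against 15.4 in HC, and Ret 35.0, 18.4 and 30.8 against 23.4. Ntrk2 was 33.9, 25.9 and 52.4 against 24.1, and Gfra3 22.2, 26.2 and 22.7 against 18.2. On this scale none of the 4 was lower in all TN areas, and Ntrk2 and Gfra3 were higher in all of them. The part of the sensory neuron markers in these differences was not tested.

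**Figure D3:**
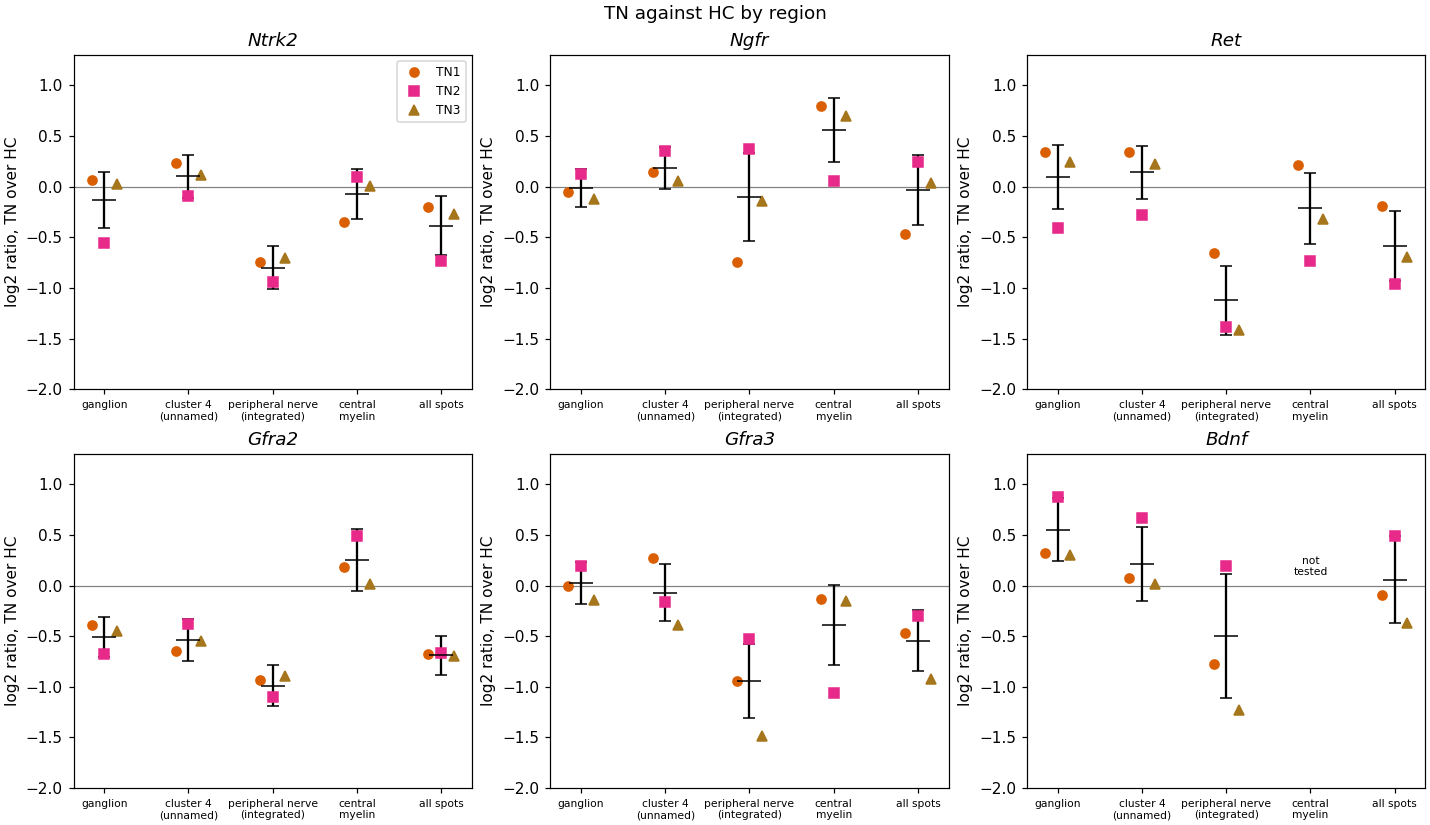
Log2 ratio of TN over HC (y axis) for 6 members in 5 sets of spots (x axis). Points are the TN areas, each as log2 of normalised CPM plus 1 over that of HC, and the bar and whiskers are the edgeR log2 fold change ± SE. Gfra2 lies below 0 for all 3 TN areas except in central myelin.

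The ligands of the family were sparse. Among the further ligand genes, Nrtn, which encodes neurturin, was well counted, with 206, 288, 290 and 296 UMIs over all spots of TN1, TN2, TN3 and HC. Its ganglion levels of 5.94, 6.76, 5.20 and 6.24 CPM were alike, and its highest mean levels were in the peripheral nerve cluster (16.5 CPM in TN1 and 14.9 in TN3). Artn, which encodes the GFRα3 ligand artemin, had 6, 194, 125 and 10 UMIs. It was high in TN2 and TN3 and not in TN1, where it (0.255 CPM over all spots) was as low as in HC (0.242 CPM).

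Within TN2 and TN3, Artn was higher in cluster 5 than in the ganglion. It was 7.15 and 7.71 CPM in their cluster 5, and 4.46 and 2.17 CPM in their ganglion, against 0.212 CPM in TN1 and 0.228 CPM in HC. Clusters 5 and 10 (connective tissue) had 1 spot each in TN1 and none in HC, so these regions have no control. In the ganglion its log2 fold change was 3.25 (SE 1.52, adjusted p = 0.560). The connective tissue list was 1083, 3340 and 2526 CPM for the ganglion sums of TN1, TN2 and TN3, against 1084 in HC, and its part was not tested. Ntf3 (46 UMIs), Gdf15 (34), Pspn (22) and Ntf4 (10) were too rare for a region.

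**Figure D4:**
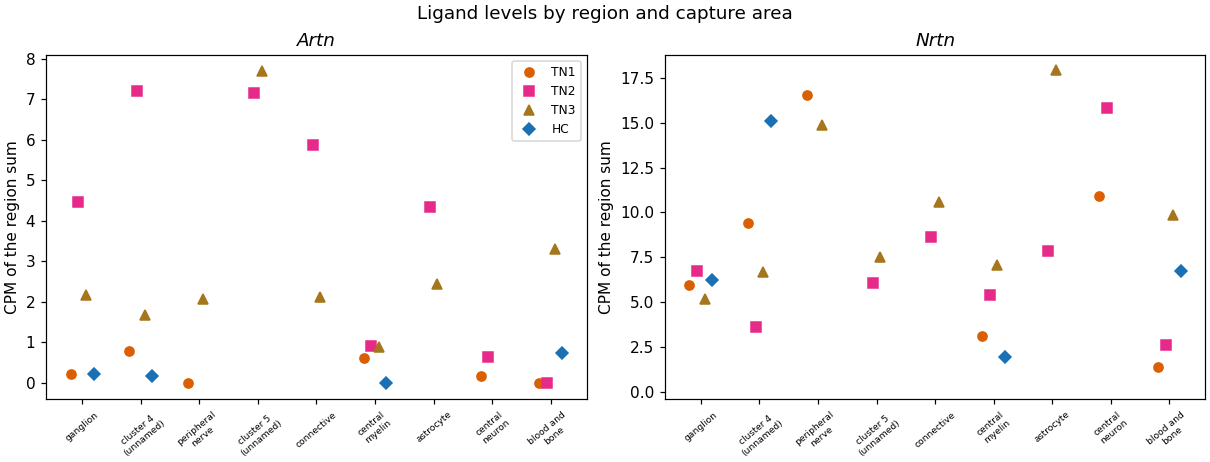
Level of the ligand genes Artn and Nrtn in CPM of the UMI sum (y axis) in 9 regions (x axis), with a point for each capture area with 20 or more spots. In the ganglion Artn is at 4.46 and 2.17 CPM in TN2 and TN3, while TN1 and HC are at 0.212 and 0.228 CPM.

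The list of 58 pathway genes (57 in the table) held ligands, co-receptors, adaptors and proteases, and the 45 tested in the ganglion gave no call in either direction. Of these, 28 had a positive and 17 a negative fold change, and 5 an unadjusted p under 0.05, a share near the 9.19% of all genes tested. Their median log2 fold change was 0.25, beside 0.03 for all genes. The 9 proteases and their regulators had a median of 0.63. Among the highest was Mmp3, a matrix metalloprotease able to cleave proneurotrophins, at 3.796, 3.92 and 2.31 CPM in TN against 0.158 in HC (log2 fold change 4.35, SE 0.72, adjusted p = 0.318). Others were Tnfrsf19 (1.95), a relative of p75NTR, Nradd (1.77), a p75NTR homologue, and Shc4 (1.68), an adaptor. The lowest were Rtn4r (-0.59), Dok4 (-0.45) and Lingo1 (-0.44), of which Rtn4r and Lingo1 encode partners of p75NTR at the Nogo receptor, followed by Sorcs3 (-0.41) and Kidins220 (-0.36), a scaffold of Trk receptors. These genes were picked for lying on 1 side of HC in all TN areas, so this is not a result. Shc4 rested on few counts, at 0.211, 1.06 and 0.576 normalised CPM in TN against 0.197 in HC, where 3 counts make 0.318 CPM in TN1. In central myelin 26 genes of the list were tested and over all spots 52, again with no call.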

How the data were processed

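Spatial transcriptomes of 4 Visium capture areas (TN1, TN2, TN3 and HC) were analysed. The authors deposited raw UMI counts per gene and spot, made with Space Ranger 1.2.0 per the file headers, without normalization, and the labels also name STAR. For the genome build and annotation release, the sources used here give nothing. The area was read from the number after each barcode. Of the barcode sequences, 2337 occurred in more than 1 area, since areas share position barcodes. All deposited spots were kept, 86 of them under 500 genes or 1000 UMIs, and no doublet caller was applied.

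SCTransform (Seurat 5.3.0 with sctransform 0.4.2) was run on 16088 genes, each with a UMI in 10 or more spots. Members and pathway genes were taken out, 3000 variable genes were kept, and spots were clustered by K-means (10 clusters, 50 starts) on 30 principal components. These clusters are not the study's. Clusters were named from marker lists on log2(CPM + 5) centred over clusters, and stayed unnamed when the 2 best lists lay within 0.25. Levels are CPM of the UMI sum per region and area with 20 or more spots.

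Sums per area were tested with edgeR 4.0.16 in R 4.3.3 (TMM, filterByExpr, quasi-likelihood F-test, Benjamini-Hochberg over all genes tested, threshold 0.05). TN areas are separate animals. The study's test over spots was not used, because spots are not replicates. Scripts were tested on simulated data. Alternatives were DESeq2 1.42.0 and its size factors, all genes without a filter, omission of each TN area, omission of mitochondrial, ribosomal protein and hemoglobin genes, a spot filter, 8 or 12 clusters, log-normalised counts, integrated areas, cluster 2 alone, and thinning to 2000 UMIs. Cluster 4 as a region, and the integrated nerve region with each TN area left out, were added after the data had been seen. Further genes were named by rule: all ligands, the 5 highest and 5 lowest pathway genes in the ganglion with all TN areas on 1 side of HC, and the 3 genes most like each member. The members and lists were chosen with earlier results of these data known. Some genes that these rules name are not reported here.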

Additional observations from a re-analysis of the deposited data

Results flagged for a closer look

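Gfra2 drew attention because its TN areas lay on opposite sides of HC in different regions. In the ganglion all 3 TN areas were lower than HC, and in the central myelin region all 3 were higher. The 2 contrasts differed by -0.77 on the log2 scale (SE 0.30), ganglion minus central myelin, and the adjusted p in the edgeR fit with the area as a block was 0.896. The central myelin values rest on fewer counts, with TN3 at 25.4 CPM and HC at 25.1 CPM, and the sign there turned with log-normalised counts before clustering (-0.16).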

How the results depend on the processing

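No paired analysis was possible, because the 1 HC area holds tissue of 2 animals and the labels do not tie it to single TN animals. The count of genes past the threshold was 0 in the ganglion, central myelin and all-spot comparisons. DESeq2 gave 118, 4 and 158, no filter on low counts gave 29 in the ganglion and 1 in central myelin, and log-normalised clusters and cluster 2 alone gave 5 each in the ganglion. Leaving out 1 TN area gave 0 to 1096 in the ganglion, 0 to 408 in central myelin, 0 to 2171 over all spots, 0 in cluster 4 (5 with all areas) and 8 to 82 for the difference between regions (3 with all areas). The highest counts in the ganglion, central myelin, all spots and the difference came without TN1, and the cause was not tested. Gfra2 in the ganglion kept its sign in all 14 settings, the main one included (-0.57 to -0.27, lowest adjusted p 0.122), as did Bdnf (0.34 to 0.69, lowest adjusted p 0.183). Other signs turned, none with a call at either sign. In the ganglion, Gfra3 (0.02) was -0.00050 without the filter, -0.049 with log-normalised clusters, -0.022 with integrated areas and -0.20 in cluster 2 alone. Ngfr (-0.01) was 0.015 without mitochondrial, ribosomal protein and hemoglobin genes, 0.0049 with 8 clusters, 0.11 with log-normalised clusters and 0.16 in cluster 2 alone. In central myelin, Gfra2 (0.25) was -0.16 with log-normalised clusters and Ntrk2 (-0.07) 0.14 with integrated areas. Over all spots Ngfr (-0.03) was 0.0022 without those genes. In the integrated nerve region, Ngfr (-0.10) was 0.38 with 8 and 1.16 with 12 clusters, and Gfra3 (-0.94) was 0.35 with 12. There Gfra2 ranged from -0.99 to -0.12, the latter with 12 clusters and 20 HC spots. The nerve region could not be tested with log-normalised clusters, where TN2 had 12 and HC 8 spots. When 1 TN area was left out, the sign also turned in the ganglion for Ret (-0.056 to 0.31), Ngfr (-0.075 to 0.068), Ntrk2 (-0.25 to 0.060) and Gfra3 (-0.059 to 0.13), in central myelin for Ntrk2 (-0.15 to 0.060), over all spots for Ngfr (-0.18 to 0.14) and Bdnf (-0.23 to 0.26), in cluster 4 for Gfra3 (-0.31 to 0.087), in the nerve region for Ngfr (-0.41 to 0.17) and in the difference between regions for Ntrk2 (-0.38 to 0.20). Thinning to 2000 UMIs, which removes most UMIs, moved the share of ganglion spots with a Bdnf UMI from 55.0% to 5.94% in TN1, 64.8% to 5.74% in TN2, 46.4% to 4.82% in TN3 and 41.8% to 3.70% in HC. Depth limits Ntrk3 and Gdnf, and 1 HC sample limits every TN against HC comparison.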
